A study of Mus musculus with 12 samples.

Results

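The miR-130 and miR-301 family was followed in 12 small RNA libraries from mouse liver, through 4 rows of the deposited count table chosen by name: mmu-miR-130a-3p, mmu-miR-130b-3p, mmu-miR-301a-3p and mmu-miR-301b-3p, out of 1929 mature miRNAs. The livers came from C57BL/6 mice with hepatic fibrosis induced by intraperitoneal carbon tetrachloride (CCl4), a liver toxin. The mice behind the 6 PZH libraries received Pien Tze Huang (PZH), a preparation of traditional Chinese medicine, intragastrically every day, and those behind the 6 water libraries received double distilled water in the same way. Both groups therefore had injured livers, no uninjured liver was analysed here, and ages and doses are not given in the labels used. Each library held between 4961913 and 20211784 counts.

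The family is defined by a shared seed, the bases near the 5′ end that pair with target messages, so its members can act on the same messages. In the vessel wall and lung it is described as promoting fibrosis, in part by repressing PPARG, a nuclear receptor that keeps fibroblast-like cells quiescent, and its genes are described as targets of the stiffness-sensing factors YAP and TAZ. In liver, miR-130a-3p has also been reported to repress receptors of TGF-β, the main fibrogenic cytokine.

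Of the 4 members, 3 had a mature sequence in the RefSeq table for GRCm38.p6. They are shown because the letters fix both what the members share and which of them can be mistaken for each other. Capitals mark the seed, bases 2 to 8.

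miR-130a-3p: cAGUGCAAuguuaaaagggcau
miR-130b-3p: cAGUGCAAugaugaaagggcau
miR-301a-3p: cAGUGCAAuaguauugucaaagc

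The seed was identical in all 3. The miR-130 members share their first 10 bases and differ, counted from the 5′ end of miR-130a-3p, by U11A and A13G in miR-130b-3p. The sequence of miR-301a-3p leaves that of miR-130a-3p after base 9. How reads that match several miRNAs were counted is not given in the sources used here, so the split of counts between the miR-130 rows, and between the miR-301 rows, is uncertain.

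The members come from 3 places in the genome (GRCm38). Mature miR-130a-3p lies at chr2:84741116-84741137 on the minus strand, and its hairpin overlaps no other annotated gene. The hairpin of miR-301a-3p (mature at chr11:87113054-87113076, plus strand) is in an intron of Ska2, a gene for a spindle and kinetochore protein transcribed in the same direction. The hairpins of miR-130b (chr16:17124061-17124142) and miR-301b (chr16:17124400-17124496) lie 257 bases apart on the minus strand, within an intron of 2610318N02Rik.

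By read counts, the family in the injured liver was almost entirely miR-130a-3p. Levels are given as CPM (counts scaled to a common library size) after TMM scaling, which corrects for library size and composition. In PZH livers miR-130a-3p stood at 318, 276, 381, 403, 386 and 438 CPM for replicates 1 to 6, and in water livers at 401, 328, 402, 383, 396 and 380 CPM. The groups overlapped, PZH replicate 2 was the lowest of the 12 libraries and PZH replicate 6 the highest. It ranked 108th of the 1929 miRNAs by mean level, with counts between 1901 and 6295 per library, and its coefficient of variation was 16.1% in PZH livers and 7.29% in water livers, where counting alone would give 1.80% and 1.64%.

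The second member was miR-301a-3p. Its levels were 15.1, 7.99, 17.0, 10.4, 14.0 and 17.3 CPM in PZH livers, against 14.6, 11.6, 13.6, 11.7, 16.8 and 17.2 CPM in water livers. PZH replicate 2 was again the lowest library, and the highest values of the groups were nearly equal. The third, miR-130b-3p, stood at 7.85, 7.06, 9.33, 9.14, 9.34 and 9.29 CPM in PZH livers and at 10.1, 7.09, 9.29, 11.8, 8.34 and 10.4 CPM in water livers. The lowest library of each group was replicate 2, and the 3 highest libraries were water replicates 4, 6 and 1. The order of the members followed their means: miR-130a-3p was above the others in 12 of 12 libraries, miR-301a-3p was above miR-130b-3p in 11 of 12, and water replicate 4 was the exception.

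The fourth, miR-301b-3p, was barely detected. Its counts were 6, 0, 5, 4, 2 and 7 in PZH livers, against 12, 22, 3, 9, 7 and 2 in water livers. Taken as a true 0, the count in PZH replicate 2 allows a level of up to 0.347 CPM for that library. There 3 counts are taken as the limit, and only counting error is covered. No cell of the deposited counts holds 1, so this 0 may stand for 1 count. The limit would then be higher. The mean level was 0.480 ± 0.355 CPM in PZH livers and 0.729 ± 0.312 CPM in water livers (SD, n = 6 each), and the groups overlapped. It did not pass the filter on low counts, so it has no test in the main comparison.

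**Figure D1:**
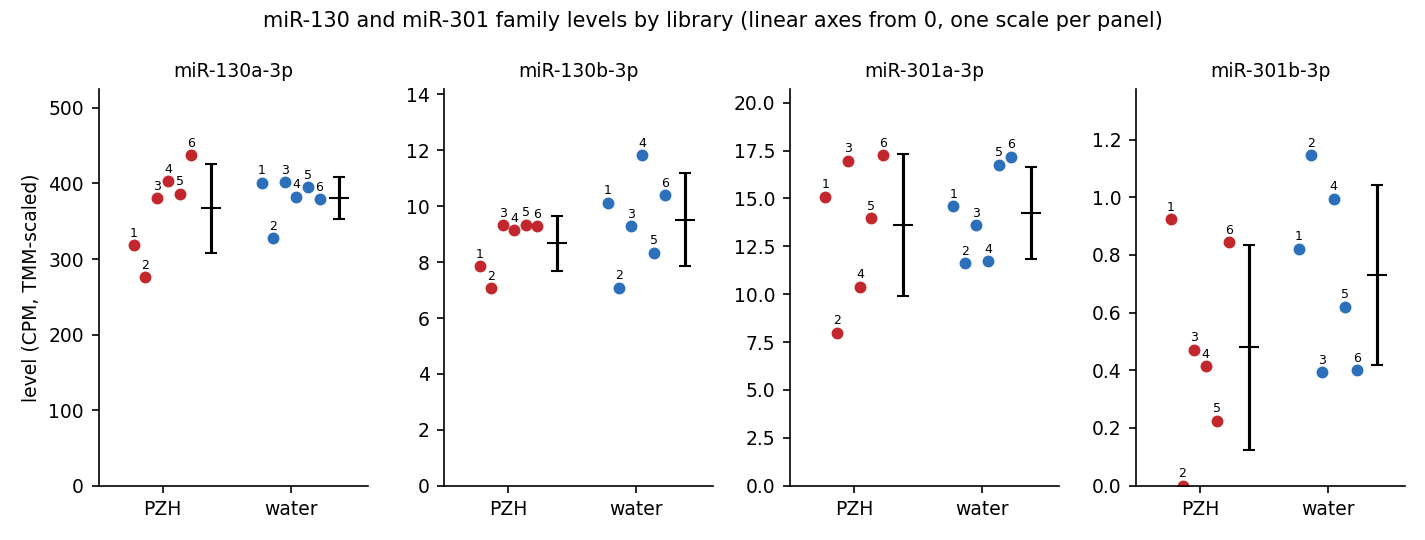
Level of each family member in CPM (vertical axes, linear, 1 scale per panel) in the 6 PZH and 6 water livers, with replicate numbers beside the points and the mean ± SD as a bar at the right of each group. In every panel the groups overlap, and PZH replicate 2 is the lowest PZH library of each member.

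The comparison of PZH with water asks whether the medicine moved these miRNAs in the fibrotic liver. None of the 3 members that could be tested was called by edgeR, and none had an unadjusted p under 0.05. DESeq2 and limma-voom called none of them either. Across the table, edgeR called 129 of 607 tested miRNAs at an adjusted p under 0.05 (21.3%), and for 61 of 607 (10%) no PZH value fell within the range of water or the reverse, whereas the groups overlapped for all 4 members. The tested members had log2 fold changes (PZH over water) with a median of -0.06, against -0.03 over all tested miRNAs.

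The mean level of miR-130a-3p was 367 ± 59.1 CPM in PZH livers and 381 ± 27.8 CPM in water livers (SD, n = 6 each). Its log2 fold change was -0.06 (SE 0.11, edgeR adjusted p = 0.833). The 95% interval of the fold change ran from 0.822 to 1.13. The mean level of miR-301a-3p was 13.6 ± 3.71 CPM in PZH livers and 14.2 ± 2.40 CPM in water livers (SD, n = 6 each; log2 fold change -0.06, SE 0.19, edgeR adjusted p = 0.899). For miR-130b-3p it was 8.67 ± 0.976 CPM in PZH livers and 9.51 ± 1.66 CPM in water livers (SD, n = 6 each; log2 fold change -0.12, SE 0.16, edgeR adjusted p = 0.674). Their 95% intervals of fold change were wider, from 0.724 to 1.27 for miR-301a-3p and from 0.730 to 1.15 for miR-130b-3p. Without PZH replicate 2 the log2 fold changes of miR-130a-3p and miR-301a-3p were 0.03 and 0.08 (edgeR adjusted p = 0.888 and 0.838).

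**Figure D2:**
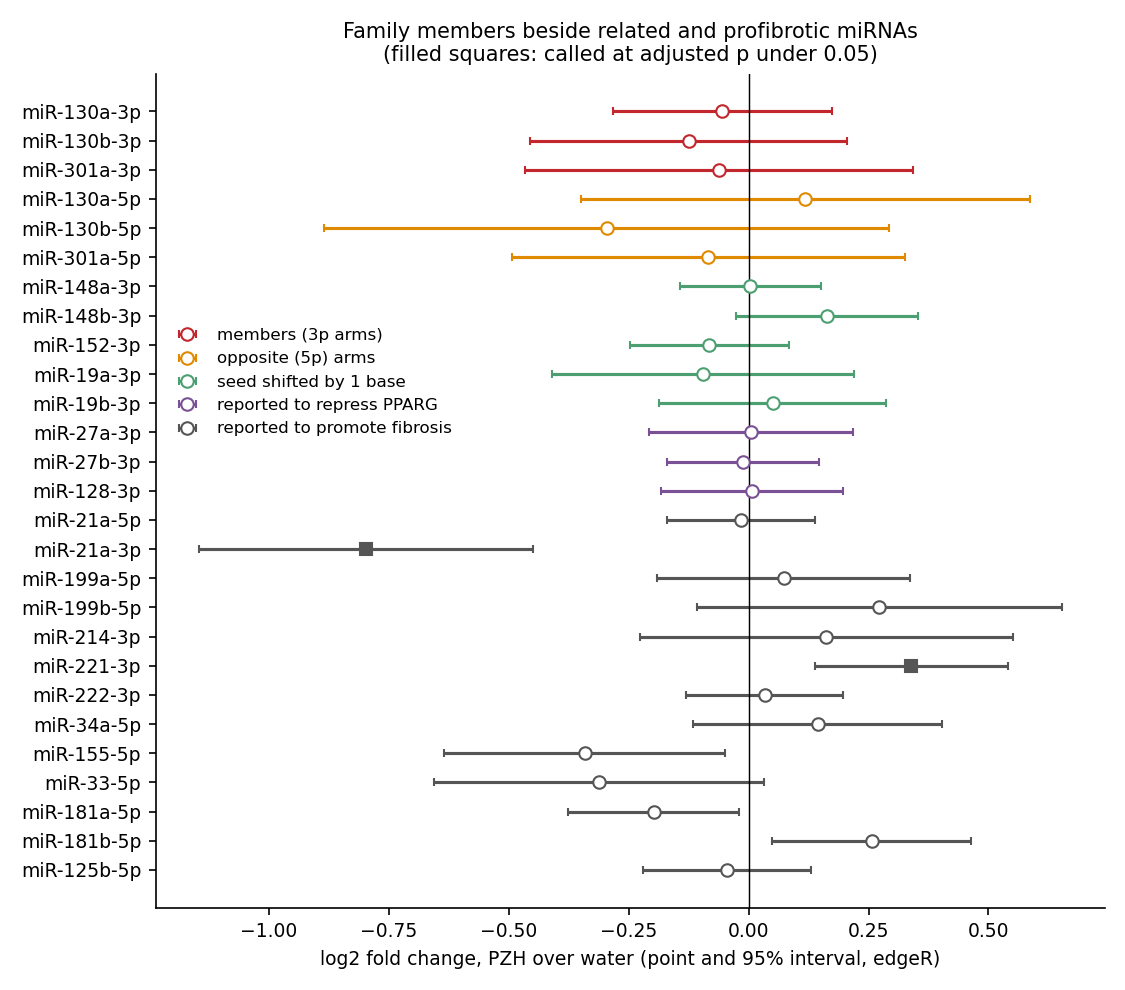
Log2 fold change of PZH over water (horizontal axis, point and 95% interval from edgeR) for the 3 tested members, their 3 tested opposite arms, 5 miRNAs with a seed shifted by 1 base, 3 miRNAs reported to repress PPARG and 13 reported to promote fibrosis. Open circles were not called, filled squares were, and the intervals of all members and opposite arms cross 0.

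The makeup of the family overlapped between the groups for every member. Of the counts of the 4 members, miR-130a-3p held 94.2% ± 0.843 in PZH livers and 94.0% ± 0.470 in water livers, miR-301a-3p held 3.48% ± 0.773 in PZH livers and 3.51% ± 0.499 in water livers, and miR-130b-3p held 2.24% ± 0.145 in PZH livers and 2.34% ± 0.349 in water livers (SD, n = 6 each). The share of miR-301b-3p ranged up to 0.270% in PZH livers and up to 0.330% in water livers. These shares are a description with no test. The summed level of the 4 members was 389.8 ± 62.4 CPM in PZH livers, with a range of 291 to 465, and 406 ± 29.7 CPM in water livers, with a range of 348 to 427 (SD, n = 6 each).

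**Figure D3:**
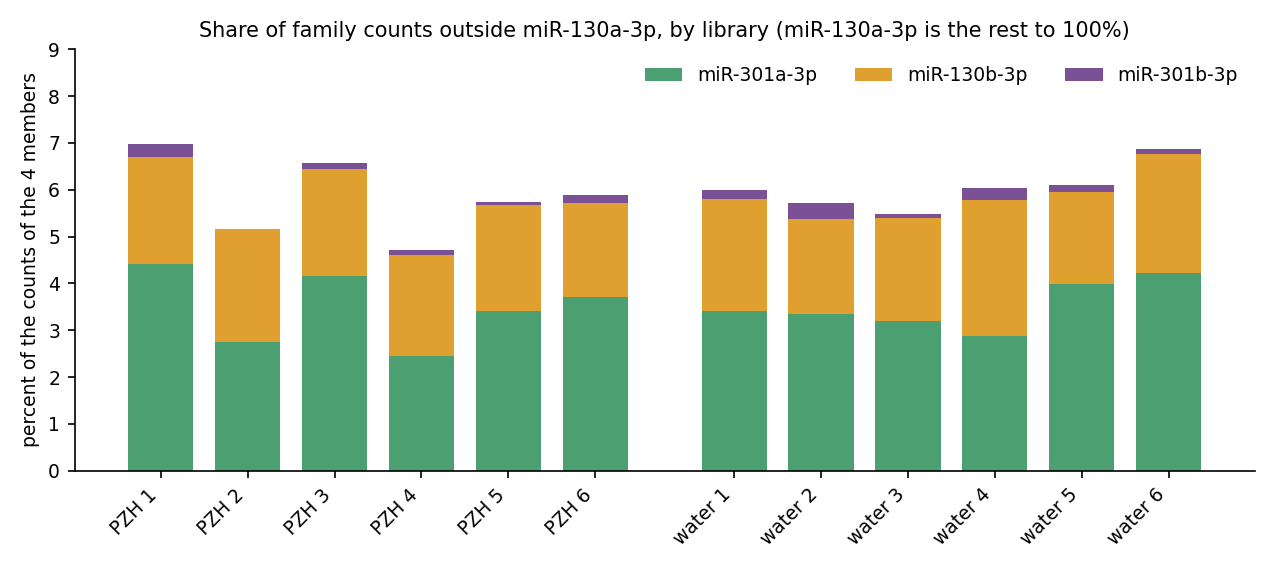
Share of the counts of the 4 members held by miR-301a-3p, miR-130b-3p and miR-301b-3p in each library (stacked bars, in percent, starting at 0), with miR-130a-3p making up the rest. The ranges of the groups overlap for each member, and miR-301b-3p is absent from the bar of PZH replicate 2.

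The neighbours miR-130b and miR-301b lie close together on the same strand, and their mature 3p arms differed widely in level. Over the 12 libraries miR-130b-3p held 2.26% of the family's counts and miR-301b-3p 0.167%. The log2 ratio of miR-130b-3p to miR-301b-3p (pseudocount 1) was 4.19 ± 1.10 in PZH livers and 3.57 ± 0.583 in water livers (SD, n = 6 each). The difference of 0.62 was not called (two-sided exact permutation p = 0.266, over 924 assignments), and it rests on a miR-301b-3p count between 0 and 7 in each PZH library. Without PZH replicate 2, where that count was 0, the difference was 0.27 (two-sided exact permutation p = 0.509).

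The hairpins give rise to a 5p and a 3p arm each. Sequences are printed for the 3 whose arms both passed the filter, to show where each arm lies, with the 5p arm and then the 3p arm in capitals.

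miR-130a hairpin: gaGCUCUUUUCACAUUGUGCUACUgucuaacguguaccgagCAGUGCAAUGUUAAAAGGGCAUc
miR-130b hairpin: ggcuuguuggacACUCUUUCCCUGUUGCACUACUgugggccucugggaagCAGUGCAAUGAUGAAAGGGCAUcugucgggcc
miR-301a hairpin: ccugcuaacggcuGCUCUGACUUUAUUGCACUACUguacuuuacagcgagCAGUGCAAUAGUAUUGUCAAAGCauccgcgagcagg

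The 3p arm, which carries the family seed, exceeded the 5p arm in every library for these 3 hairpins, and by a different margin in each. The count ratio of 3p to 5p was 107 ± 26.0 in PZH livers and 123 ± 33.5 in water livers for miR-130a (SD, n = 6 each). It was 4.54 ± 1.57 in PZH livers and 3.77 ± 0.975 in water livers for miR-130b, and 3.10 ± 0.530 in PZH livers and 3.13 ± 0.764 in water livers for miR-301a (SD, n = 6 each). The 5p arms do not carry the family seed. Bases 2 to 8 are CUCUUUU in miR-130a-5p, CUCUUUC in miR-130b-5p, and CUCUGAC in both miR-301a-5p and miR-301b-5p.

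The 5p arms lay much closer together in level than the 3p arms. The 5p arms of miR-301a and miR-130a averaged 4.39 ± 1.03 and 3.55 ± 0.788 CPM in PZH livers, and 4.64 ± 0.509 and 3.27 ± 0.706 CPM in water livers (SD, n = 6 each). The level of miR-130b-5p was 2.14 ± 0.831 CPM in PZH livers and 2.63 ± 0.703 CPM in water livers (SD, n = 6 each). Among these arms miR-301a-5p, from the hairpin of the second member, was thus the highest by mean in both groups. The counts of miR-301b-5p were at most 3 in PZH livers and at most 7 in water livers, with 4 libraries at 0 in each group.

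The balance of the arms was compared in the same way. In a limma test of the log2 ratio of 5p to 3p over 137 hairpins, 11 were called (8.03%; 3 to 14 with any 1 library left out), and none was a family hairpin. The difference, PZH minus water, was 0.19 for miR-130a (SE 0.21, limma adjusted p = 0.603), -0.19 for miR-130b (SE 0.25, limma adjusted p = 0.664) and 0.00 for miR-301a (SE 0.16, limma adjusted p = 0.985). The 95% intervals ran from -0.26 to 0.64, from -0.74 to 0.35 and from -0.36 to 0.35 in that order. Without PZH replicate 2 the difference was 0.04 for miR-130a and -0.42 for miR-130b (limma adjusted p = 0.899 and 0.184). The opposite arms themselves were not called: log2 fold changes were 0.12 for miR-130a-5p, -0.30 for miR-130b-5p and -0.08 for miR-301a-5p (edgeR adjusted p = 0.819, 0.535 and 0.863).

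**Figure D4:**
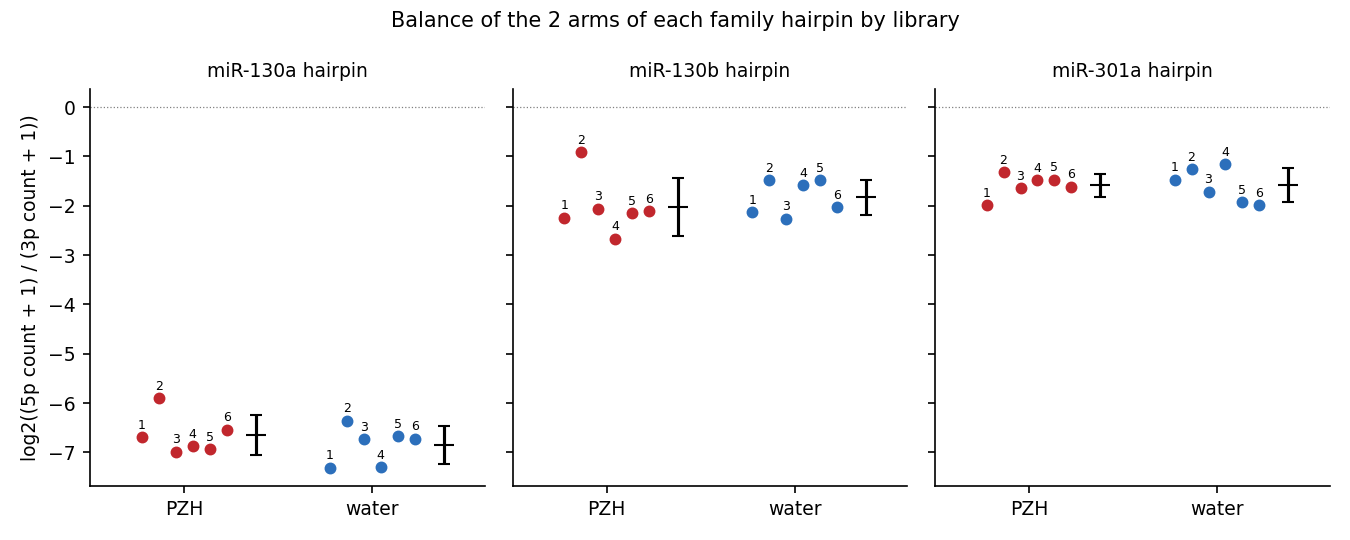
Log2 ratio of 5p to 3p counts (pseudocount 1, vertical axis; 0 means equal arms) for the hairpins of miR-130a, miR-130b and miR-301a in the 6 PZH and 6 water livers, with replicate numbers and the mean ± SD as a bar. All points lie below 0, those of miR-130a lowest, and replicate 2 is the highest point of each group for miR-130a.

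Other mouse miRNAs carry the same seed. A search of the RefSeq mature sequences found 4 that are also in the table, and they are shown because the seed groups them with the family.

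miR-130c: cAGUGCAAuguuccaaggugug
miR-721: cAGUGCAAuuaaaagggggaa
miR-6341: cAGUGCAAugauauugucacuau
miR-6389: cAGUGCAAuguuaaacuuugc

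All 4 were at the edge of detection and none passed the filter. Together with the members they left miR-130a-3p with 94.0% ± 0.865 of the same-seed level in PZH livers and 93.9% ± 0.460 in water livers (SD, n = 6 each). The one with an uneven spread was miR-130c, with counts of 2, 4, 2, 7, 3 and 2 in PZH livers, against 0, 2, 0, 2, 0 and 0 in water livers. It was above 0, which here means at least 2 counts, in 6 of 6 PZH livers and in 2 of 6 water livers. Its levels overlapped between groups. At a limit of 3 counts, the water libraries at 0 allow levels of up to 0.205 to 0.599 CPM. The PZH levels lay between 0.189 and 0.727 CPM. How many other miRNAs split in this way was not counted. Tested without a filter miR-130c was not called (edgeR unadjusted p = 0.0401, adjusted p = 0.254 over 1929 miRNAs). Its hairpin lies opposite an exon of Kdelc2, on the other strand. Whether the counting used the strand of the reads is not given, and a share of Kdelc2 reads in these counts was not tested. The totals were 4 and 9 counts for miR-721, 2 and 5 for miR-6341, and 11 and 12 for miR-6389, in PZH livers and water livers in that order.

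A second set of miRNAs carries nearly the same letters displaced by 1 base. Capitals mark the run shared with the start of miR-130a-3p.

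miR-148a-3p: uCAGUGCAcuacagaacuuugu
miR-148b-3p: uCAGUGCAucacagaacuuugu
miR-152-3p: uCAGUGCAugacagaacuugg
miR-19a-3p: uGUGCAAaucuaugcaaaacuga
miR-19b-3p: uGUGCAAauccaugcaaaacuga

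In the miR-148/152 members the run is 7 bases long and starts at base 2, where it starts at base 1 in miR-130a-3p. In the miR-19 members it is 6 bases long and starts at base 2, against base 3 in miR-130a-3p. By read counts these relatives were above the family, apart from miR-19a-3p. The level of miR-148a-3p was 28276 ± 2623 CPM in PZH livers and 28203 ± 1595 CPM in water livers, and that of miR-19b-3p 1942 ± 351 CPM in PZH livers and 1875 ± 191 CPM in water livers (SD, n = 6 each). Of the 5, none was called, the median log2 fold change was 0.00 and the values lay between -0.09 and 0.16.

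Other miRNAs reported to act on the same pathway were set beside the family. The levels of miR-27a-3p, miR-27b-3p and miR-128-3p, each reported to repress the PPARG message, had log2 fold changes of 0.01, -0.01 and 0.01, and none of the 3 was called. Of 13 miRNAs reported to promote fibrosis, 1 was called higher and 1 lower, with a median log2 fold change of 0.03, where 21.3% of all tested miRNAs were called. The higher one was miR-221-3p, which represses inhibitors of the cell cycle, with 5320 ± 822 CPM in PZH livers and 4204 ± 300 CPM in water livers (SD, n = 6 each) and a log2 fold change of 0.34 (edgeR adjusted p = 0.0172), and the lower one was miR-21a-3p, the minor arm of the miR-21a hairpin, with 116 ± 23.0 CPM in PZH livers and 201 ± 42.2 CPM in water livers (SD, n = 6 each) and a log2 fold change of -0.80 (edgeR adjusted p = 0.00281). The next by p were miR-181b-5p (0.26), miR-155-5p (-0.34) and miR-181a-5p (-0.20), with edgeR adjusted p = 0.0771, 0.0951 and 0.111.

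Within groups the 3 tested members tended to be low in the same livers. After each group was centred on its mean, log2 CPM of miR-130a-3p and miR-130b-3p correlated at r = 0.68 over the 12 libraries (permutation p = 0.00623, adjusted p = 0.0374 over 6 pairs of members; Spearman's rho = 0.37, permutation p = 0.198, adjusted p = 0.637). Without PZH replicate 2 and water replicate 2, the libraries farthest from the median of miR-130a-3p, r was 0.29. The size of r over both groups thus depends on those libraries. With them included, r was 0.95 within PZH libraries and 0.60 within water libraries. For miR-130a-3p and miR-301a-3p r was 0.60 (permutation p = 0.0986, adjusted p = 0.296; rho = 0.31, permutation p = 0.399, adjusted p = 0.680) and it was 0.01 without the same libraries. For miR-130b-3p and miR-301a-3p r was 0.35 (permutation p = 0.232, adjusted p = 0.349; rho = 0.37, permutation p = 0.212, adjusted p = 0.637), and -0.34 without those libraries. The 3 pairs with miR-301b-3p, which has too few counts to read, gave r between 0.15 and 0.46. Their signs differed by group. With miR-130a-3p, miR-130b-3p and miR-301a-3p in that order, r was 0.57, 0.49 and 0.81 within PZH libraries. Within water libraries it was -0.58, -0.20 and -0.71.

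Replicate 2 was the lowest library of its group for these 3 members in both groups. For miR-301a-3p, water replicate 2 (11.6 CPM) and water replicate 4 (11.7 CPM) were nearly tied. For miR-301b-3p replicate 2 was the lowest PZH library and the highest water library. Water replicate 2 held the most counts of the 12 libraries, 20211784, and PZH replicate 2 held 8452845. The part of sequencing depth in these levels was not tested. Relative to its group mean PZH replicate 2 was at -0.39 for miR-130a-3p, -0.28 for miR-130b-3p and -0.70 for miR-301a-3p on the log2 scale, and water replicate 2 at -0.21, -0.40 and -0.27 in the same order. Over all 607 tested miRNAs the mean correlation with the rest of the group was 0.984 for PZH replicate 2, the lowest of a PZH range up to 0.987. It was 0.987 for water replicate 2, in a water range of 0.987 to 0.989. These correlations span abundant and rare miRNAs and were high in all 12 libraries, so they cannot decide whether a library stood apart. The 5 hepatocyte marker miRNAs summed to 176734 CPM in PZH replicate 2, the lowest of a PZH range up to 231582 CPM, and to 209162 CPM in water replicate 2, inside the water range of 195079 to 225324 CPM. The 5 epithelial and biliary markers summed to 2192 CPM in water replicate 2, the highest of the 12 libraries, and to 956 CPM in PZH replicate 2. The 5 mesenchymal markers summed to 74809 CPM in PZH replicate 2, inside the PZH range of 50274 to 87846 CPM, and to 87992 CPM in water replicate 2, the highest of the water libraries. The endothelial markers summed to 11336 CPM in PZH replicate 2, inside the PZH range of 10272 to 13900 CPM, and to 12863 CPM in water replicate 2, the lowest of a water range up to 17096 CPM. The leukocyte markers summed to 7158 CPM in PZH replicate 2, inside the PZH range of 5893 to 8730 CPM, and to 6489 CPM in water replicate 2, the lowest of a water range up to 8477 CPM. The erythroid markers summed to 3435 CPM in PZH replicate 2, inside the PZH range of 2429 to 4582 CPM, and to 2945 CPM in water replicate 2, the lowest of a water range up to 4743 CPM. Water replicate 2 was thus the lowest water library for these last 3 sets, and PZH replicate 2 was not the lowest PZH library for any of them. The part of these differences in the low family levels was not tested, and in whole liver fewer cells of a type and less RNA per cell cannot be told apart.

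**Figure D5:**
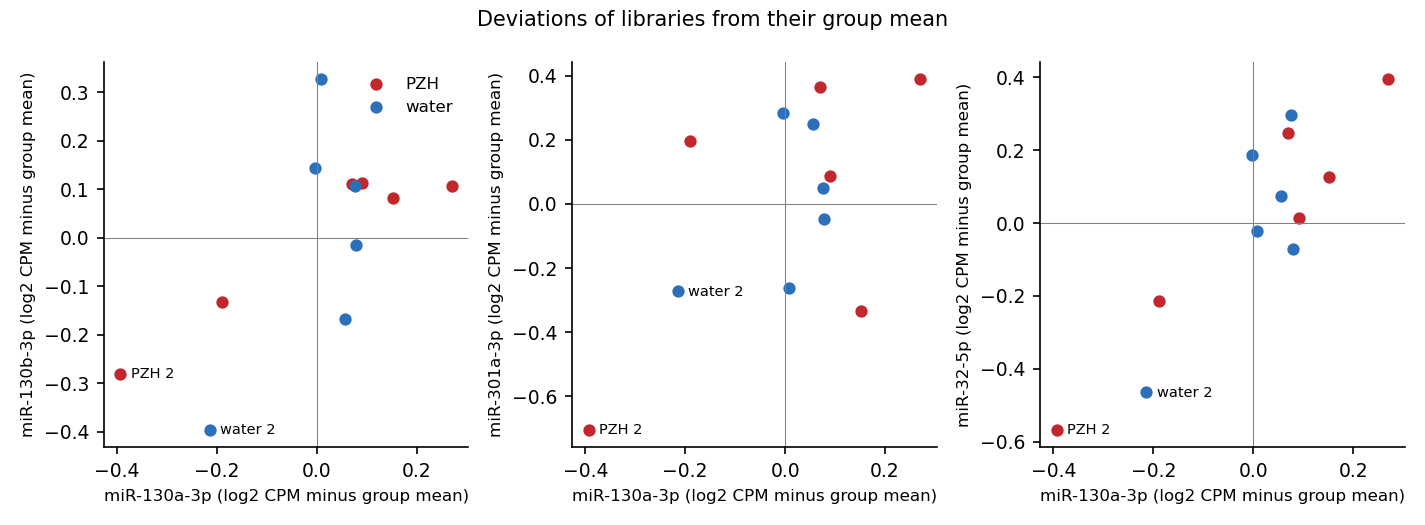
Deviation of each library from its group mean in log2 CPM, for miR-130a-3p (horizontal axes) against miR-130b-3p, miR-301a-3p and miR-32-5p (vertical axes), with PZH in red and water in blue. PZH replicate 2 and water replicate 2 lie at the lower left of all 3 panels, and r is 0.68, 0.60 and 0.90 from left to right.

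Among 340 other miRNAs averaging 10 CPM or more, those whose centred profile over the 12 libraries was most like a member were found by Pearson's r, as a description. For miR-130a-3p they were miR-32-5p (r = 0.90), miR-450a-5p (0.87) and miR-16-5p (0.85), against a median r of 0.09 over the 340. The first was at 132 ± 29.6 CPM in PZH livers and 155 ± 26.6 CPM in water livers (SD, n = 6 each), and r was 0.96 among PZH libraries and 0.82 among water libraries. Relative to its group mean miR-32-5p was at -0.57 in PZH replicate 2 and -0.46 in water replicate 2, in log2 CPM. Its r without these libraries was not computed. All miRNAs named here were picked as the highest of the 340, so their distance from the median is no test. For miR-130b-3p they were miR-148b-5p (0.81), miR-331-3p (0.80) and miR-16-5p (0.80). For miR-301a-3p they were miR-18a-5p (0.91), miR-322-5p (0.79) and miR-450b-5p (0.75). The profile of miR-18a-5p, a member of the miR-17-92 cluster, had r = 0.97 with miR-301a-3p within PZH libraries and 0.75 within water libraries, whereas miR-450b-5p had 0.88 within PZH libraries and 0.28 within water libraries. For miR-301b-3p they were miR-505-3p (0.81), miR-7a-5p (0.76) and miR-425-5p (0.75), over counts too sparse for a reading, and for miR-425-5p r was 0.90 within PZH libraries and 0.16 within water libraries. None of these miRNAs was called between PZH and water. The closest to a call were miR-18a-5p (log2 fold change 0.37, edgeR adjusted p = 0.0535) and miR-450b-5p (-0.40, edgeR adjusted p = 0.0595).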

How the data were processed

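Per the labels, Trizol extraction from liver preceded library preparation with a TruSeq small RNA kit. The deposited table holds raw counts per mature miRNA, with no normalization. The submitters' processing notes name cutadapt, FastQC, BWA, DESeq2 and build GRCm38. How each was used, their versions, the counting program and the treatment of multi-matching reads were not given in the sources used here. No cell of the table holds 1, while 3049 hold 2, so detection stands for 2 or more counts. Reads carry no molecular identifiers, so floors cover counting error only. The floors also take each 0 as a true 0, though a 0 may stand for 1 count.

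Counts were tested with edgeR's quasi-likelihood test (edgeR 4.0.16, R 4.3.3) over the whole table, following its default filter and TMM scaling, with Benjamini-Hochberg adjustment over all 607 miRNAs tested. SEs were derived from the test statistic. Ratios of 5p to 3p counts (pseudocount 1, both arms with a mean of at least 20 counts) were tested with limma 3.58.1 over 137 hairpins. Correlations used log2 CPM with a prior count of 2, centred on group means, and 100000 permutations within groups. The edgeR test and the limma test of arm ratios were tried on simulated data. The members, lists and naming rule were chosen with earlier results of these data known: named are the members, their opposite arms, same-seed and shifted-seed miRNAs, called members of the 2 pathway lists with up to 3 others of smallest p, and the 3 most similar miRNAs of each member. The labels do not say that each library is a separate mouse, so p-values measure the spread between these samples. Replicate numbers 1 to 6 occur in both groups; no source pairs them, so none were paired. Alternatives comprised limma-voom, DESeq2 1.42.0, other scalings (total count, RLE, TMMwsp), other filters (none, or 10 CPM in 6 libraries), a replicate block and leaving out each library. The removal of both replicate 2 libraries was added after the data were seen. Sequences are from RefSeq (GRCm38.p6) and host genes from GENCODE on GRCm38.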

Additional observations from a re-analysis of the deposited data

Results flagged for a closer look

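Values are listed here where 1 library lay far from the other 5 of its group. Of 42 such groups of values, 4 did so, and chance gives about 1 in 20. For miR-130a-3p, water replicate 2 stood at 328 CPM, with the next water library at 379.7 CPM. The summed level of the 4 members, which is mostly miR-130a-3p, was likewise lowest in water replicate 2, at 348 CPM against 407 CPM in the next. For miR-130b-5p, PZH replicate 2 stood at 3.70 CPM, with the next PZH library at 2.17 CPM. The log2 ratio of miR-130b-5p to miR-130b-3p in that library was -0.91, against -2.06 in the next. Its counts were 32 for the 5p arm and 61 for the 3p arm. These 4 values come from 2 libraries and share counts, so they are not independent of each other.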

How the results depend on the processing

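No family member, arm ratio or member ratio was called under any alternative that could test it. Over 20 or 21 alternatives, log2 fold changes lay between -0.11 and 0.033 for miR-130a-3p, between -0.20 and -0.03 for miR-130b-3p and between -0.14 and 0.076 for miR-301a-3p. Positive signs of miR-130a-3p and miR-301a-3p came with a filter of 10 CPM in 6 libraries (0.028 and 0.024), which removed miR-130b-3p, and without PZH replicate 2 (0.033 and 0.076). The cause of the sign under the filter was not tested. With both replicate 2 libraries left out miR-301a-3p stood at 0.0061. Without a filter miR-301b-3p could be tested and stood at -0.65 (edgeR adjusted p = 0.743). With 1 library left out at a time, the arm ratio difference ranged from 0.04 to 0.29 for miR-130a, from -0.42 to -0.07 for miR-130b and from -0.083 to 0.082 for miR-301a. The difference in log2 ratio of miR-130b-3p to miR-301b-3p ranged from 0.27 (without PZH replicate 2) to 0.88 (without PZH replicate 1) over its 14 alternatives.

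Calls over all miRNAs numbered 94 to 144 over the alternatives, against 129. Called arm ratios were fewer with a mean of at least 10 counts (5) or the replicate block (6), against 11, and numbered 3 to 14 with 1 library left out; they were 5 or fewer without water replicate 1, 3, 4 or 5 or PZH replicate 1, 5 or 6. The cause was not tested. Same-numbered libraries correlated between -0.15 and 0.08, and no source says that the numbers pair mice. With the replicate block the log2 fold changes were -0.07, -0.12 and -0.10 for miR-130a-3p, miR-130b-3p and miR-301a-3p, and 114 miRNAs were called. Low counts limit miR-301b-3p and the 5p arms.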

Other observations

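Marker sets of liver cell types were described in the same libraries, where 21.3% of all tested miRNAs were called. The hepatocyte set had 1 of 5 tested members lower with PZH, miR-802-5p (log2 fold change -0.65, edgeR adjusted p = 0.0138). The endothelial set had 2 of 2 lower, miR-126a-3p (-0.36) and miR-126a-5p (-0.33). The leukocyte set had 1 of 6 higher and 1 lower, the epithelial and biliary set had 2 of 5 lower, and the mesenchymal and erythroid sets had no call among 5 and 2. The 2 epithelial and biliary calls spread widely in water livers, at 82.2 ± 53.1 CPM for miR-200c-3p and 137 ± 81.5 CPM for miR-141-3p (SD, n = 6). That set summed to 2192 CPM in water replicate 2, with the next water library at 1151 CPM. The part of water replicate 2 in these calls was not tested. No marker in the table was at 0 in all libraries. The relation of these sets to the family's level was not tested.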
